A study of Mus musculus with 4 samples.

Results

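The cadherins and protocadherins were followed in embryonic mouse kidneys after deletion of Sall1, a zinc finger transcription factor of nephron progenitors. Members were all probes whose RefSeq accession belongs to a gene named Cdh plus a number, other than the endothelial Cdh5, or to a gene whose name starts with Pcdh. There were 86 such probes for 68 genes, among 55681 probes and 20018 named genes on the array. The members are 5 classical cadherins, 12 atypical cadherins, 5 other cadherins, 11 non-clustered protocadherins, and 7 alpha, 22 beta and 6 gamma protocadherins of the clustered kind.

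RNA was taken at E13.5 from 2 control and 2 Sall1 knockout samples of kidney, all on a hybrid background of 129 and C57BL/6. Tamoxifen had been given at E12.5, 24 hours earlier, in a line labelled Sall1CreER. CreER is a Cre recombinase that tamoxifen activates. The sample titles name flox for the controls and CreER for the knockouts, and the treatment is described in the same words for all 4 samples, so deletion of Sall1 and presence of CreER cannot be told apart. The sources used here do not say whether a sample was 1 embryo or a pool, so p-values cover only how these samples vary, which may be technical. In whole kidneys, fewer cells of a type and less RNA per cell cannot be told apart.

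Cadherins are calcium-dependent adhesion molecules that bind the same or a related cadherin on the neighbouring cell. Classical (type I) and atypical (type II) cadherins hold on to actin through beta-catenin, alpha-catenin and p120-catenin. In the developing kidney, conversion of mesenchyme into nephron epithelium goes together with a switch between cadherins, in which Cdh11 and Cdh2 mark mesenchyme, Cdh4 and Cdh6 the early nephron, and Cdh1 and Cdh16 epithelial tubes. Protocadherins lack the catenin-binding tail. The clustered ones lie side by side in 3 arrays of alternative first exons (alpha and gamma) or single-exon genes (beta), and are best known for giving neurons an identity of their own.

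Signals are processed scanner intensities, divided by the 75th percentile of their array and given as log2, here called the log2 level, so that 0 stands for that percentile. A difference is knockout minus control on this log2 scale, with the standard error (SE) of the limma fit and n = 2 arrays per group. Levels of different probes are not compared, since probes differ in brightness. The share of all spots well above background was 60.6% to 64.2% per array, and was smallest on Sall1 knockout replicate 2. Sall1 itself had log2 levels of 1.79 and 1.80 in the controls and 1.03 and 1.06 in the knockouts, a difference of -0.75 ± 0.056 (SE) that did not pass in limma (adjusted p = 0.125). Whether its probe lies in the deleted part is not given. As a check of the tissue, the 7 listed nephron progenitor markers and the 9 ureteric bud markers were above background on every array. Markers of tissue outside the kidney were measured too: skeletal muscle markers were higher on both knockout arrays for 7 of 8 genes, and liver and gut markers for 8 of 8.

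The RefSeq promoter table (build GRCm38.p6) had an entry for 22 of 68 members, and the sequence around the transcription start is shown for 3 of those the results turn on. Each stretch runs from 250 bases before to 50 bases after the start, 5′ to 3′ on the strand of the gene. Pcdh8 and Pcdh17, which were higher in both knockout samples, are at chr14:79771263-79771562 (minus strand) and chr14:84443313-84443612 (plus strand). In these, capitals mark CCAAT or its reverse complement ATTGG, a promoter element known to bind the factor NF-Y. Cdh15, of muscle precursors, is at chr8:122848124-122848423 (plus strand). There, capitals mark E-boxes (CANNTG, which reads alike on both strands), the element bound by bHLH factors such as MyoD.
Pcdh8: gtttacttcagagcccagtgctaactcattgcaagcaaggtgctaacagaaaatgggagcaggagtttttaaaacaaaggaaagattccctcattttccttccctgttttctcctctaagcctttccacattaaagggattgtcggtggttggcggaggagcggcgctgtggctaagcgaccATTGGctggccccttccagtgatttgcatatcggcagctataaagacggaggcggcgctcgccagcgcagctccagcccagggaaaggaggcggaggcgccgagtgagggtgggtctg
Pcdh17: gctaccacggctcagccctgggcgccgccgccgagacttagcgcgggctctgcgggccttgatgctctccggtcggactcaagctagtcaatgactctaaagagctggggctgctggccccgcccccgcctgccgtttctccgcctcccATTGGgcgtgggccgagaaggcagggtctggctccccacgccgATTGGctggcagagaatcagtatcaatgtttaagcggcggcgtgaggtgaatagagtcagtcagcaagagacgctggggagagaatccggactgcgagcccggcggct
Cdh15: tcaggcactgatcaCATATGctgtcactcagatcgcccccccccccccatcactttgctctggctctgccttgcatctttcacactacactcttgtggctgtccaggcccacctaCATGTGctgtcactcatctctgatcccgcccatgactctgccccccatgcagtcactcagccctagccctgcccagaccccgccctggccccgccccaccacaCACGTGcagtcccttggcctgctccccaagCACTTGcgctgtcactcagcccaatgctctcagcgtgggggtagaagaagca
The Pcdh8 stretch held 1 ATTGG, starting 68 bases before the start, and TATAAA, searched on the strand of the gene, 30 bases before it. The Pcdh17 stretch held 2 ATTGG, at 101 and 58 bases before the start. CCAAT or ATTGG occurred in 37.4% and TATAAA in 8.32% of 32851 promoters of this length, and E-boxes in 72.3%. Cdh15 held 4 E-boxes, and none of them was CAGCTG, the form found in 16.3% of promoters. These matches describe the letters only.

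Detection of the family's probes was uneven across classes. Of the 86 probes, 52 were well above background on all 4 arrays and 25 on none. All 8 probes of the classical cadherins were above background on every array, as were 15 of 21 probes of the non-clustered protocadherins. The alpha cluster was the other extreme, with 2 of 9 probes above background on all arrays and 6 on none. The genes of those 2 probes, Pcdha8 and Pcdhac2, each had another probe above background on no array. Such counts therefore depend on the probes as well, and do not measure the expression of a class. Of the beta cluster 12 of 22 probes, and of the gamma cluster 4 of 7, were above background throughout. Sall1 knockout replicate 2 had 53 member probes above background, against 58 to 60 on the other arrays, and it also had the smallest share over all spots.

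**Figure D1:**
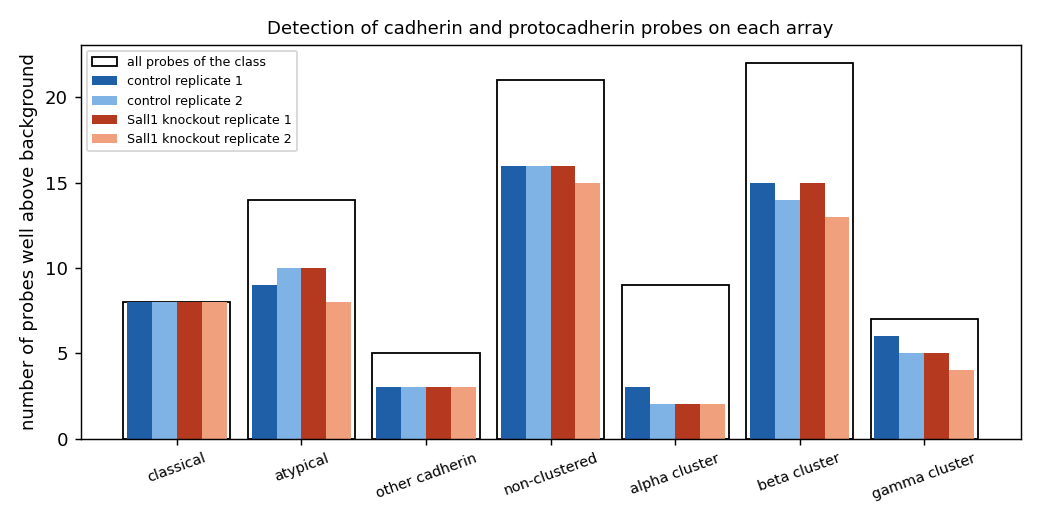
Number of probes well above background (y axis) in each class of cadherin and protocadherin (x axis), with 1 coloured bar per array and an open bar for all probes of the class. All 8 classical probes are above background on each array, while 2 or 3 of 9 alpha cluster probes are.

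Of the 68 genes, 48 had a probe well above background on both arrays of a group and were tested, and 20 were not. Of the 20, 17 were above background on no array. They include Cdh17, a cadherin of gut epithelium, and Cdh19, of Schwann cell precursors. Also among them are Cdh7 and Cdh20, of neural crest and neural tube, and Cdh23, which forms the tip links of hair cells. The others were Pcdha4, Pcdha11, Pcdha12 and Pcdhac1 of the alpha cluster, Pcdhb2, Pcdhb5, Pcdhb8, Pcdhb9, Pcdhb11, Pcdhb13 and Pcdhb19 of the beta cluster, and Pcdhgb1. Cdh18 was above background on 1 array of each group, and Pcdha9 and Pcdhga5 on control replicate 1 alone. Among the genes tested, 43 were above background on all 4 arrays. Cdh24, Pcdhb1, Pcdhb15 and Pcdhga10 were above background on 1 of 2 knockout arrays and Pcdhb10 on 1 of 2 control arrays.

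None of the 48 genes passed the adjusted p of 0.05 in limma: 0 higher and 0 lower, beside 0% in each direction of the 25083 genes and unnamed sequences in the fit. The smallest adjusted p was 0.191, for Pcdh8. At an unadjusted p under 0.05, 7 members were higher (14.6%, against 6.85% of everything tested) and 2 were lower (4.17%, against 5.84%). With a variance prior that follows the signal, called the trended and robust prior below, 2 members were called higher (4.17%, against 0.538% of everything tested) and 0 lower (0.622%), and these were Pcdh8 and Cdh16. By size alone, 3 members were at least 1.5-fold higher with both knockout values above both control values, namely Pcdh8, Cdh15 and Cdh13 (6.25%, against 2.50%), and 1 was lower in this way, Cdh9 (2.08%, against 1.04%). The number higher in this way rose without control replicate 1, where a single control array makes the condition easier to meet for every gene. Without Sall1 knockout replicate 1 the Cdh9 difference was -0.43, which is under 1.5-fold. Whatever the size, both knockout values were above both controls for 15 members (21.8% of everything tested) and below both for 7 (27.4%). Together these are 45.8% of the members, near the 49.2% of everything tested.

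The sign of the difference was positive for 32 of 48 members, 66.7%, against 46.8% of everything tested, and the median difference was 0.093, against -0.011. By class, 10 of 11 non-clustered and 15 of 21 clustered protocadherins had a positive difference, whereas 6 of 8 atypical cadherins had a negative one. These counts depend on the background filter. Cdh24, Pcdhb1 and Pcdhb15, with negative differences, passed it through the control arrays alone, and so did Pcdhga10, with a positive one (0.074). Pcdhb10, with a positive one, passed it through the knockout arrays alone. The atypical genes left out by the filter, Cdh7, Cdh18, Cdh19 and Cdh20, had positive differences (1.49, 0.76, 0.24 and 0.56). Class medians were 0.075 for classical, -0.12 for atypical, 0.45 for other cadherins (3 genes), 0.19 for non-clustered, -0.011 for alpha, 0.11 for beta and 0.096 for gamma protocadherins. Differences between classes were not tested. The classical median was -0.039 without control replicate 1, and the beta median was 0.042 without control replicate 1, 0.017 without Sall1 knockout replicate 1 and 0.20 without Sall1 knockout replicate 2. The atypical median was -0.0010 with no background filter, -0.066 without control replicate 1 and -0.080 when Sall1 knockout replicate 1 was left out. The gamma median was 0.058 with median centring, 0.029 without control replicate 2 and 0.15 without control replicate 1, and the alpha median, over 2 genes, ran from -0.15 without control replicate 2 to 0.12 without control replicate 1. When all probes of a gene were averaged, the non-clustered median was 0.29.

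**Figure D2:**
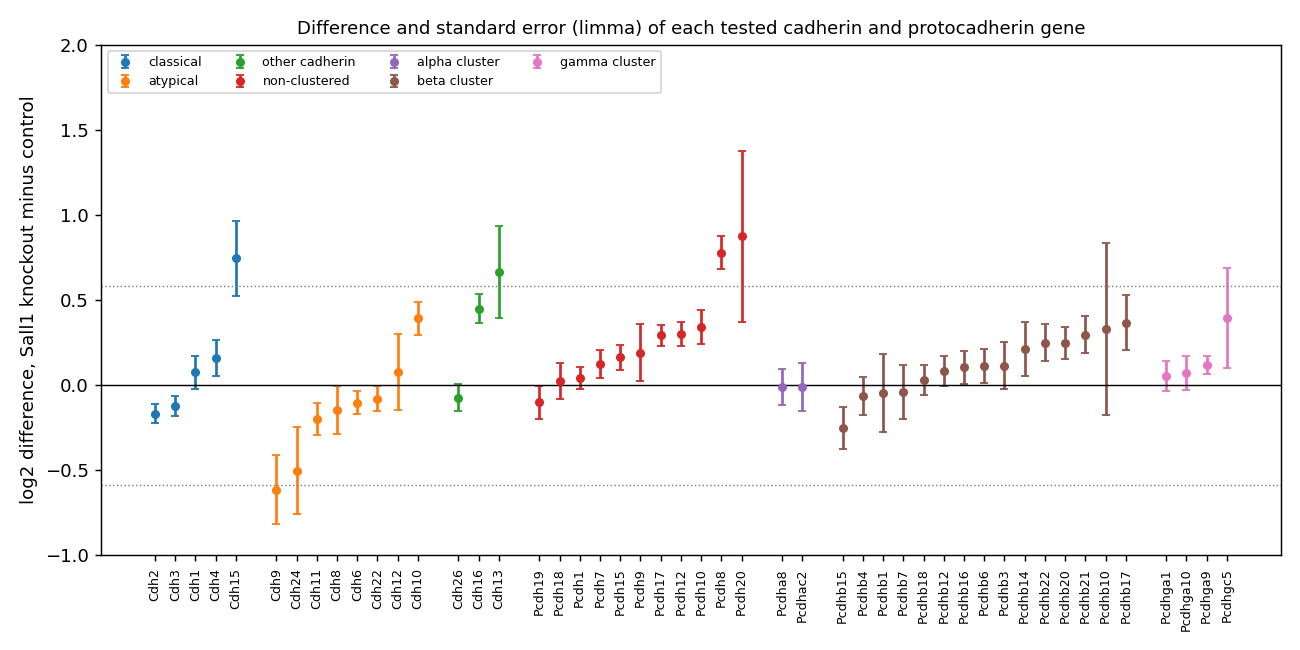
Log2 difference, Sall1 knockout minus control (y axis), of each of the 48 tested genes (x axis, by class), with points for the limma estimate and bars for its standard error. Dotted lines mark 1.5-fold; Pcdh8, Cdh15, Cdh13 and Pcdh20 lie above the upper line and Cdh9 below the lower one.

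The classical cadherins were all above background on every array, and Cdh15 had the largest difference among the 5. Cdh1 (E-cadherin), of the ureteric bud and the later distal nephron, had log2 levels of 0.73 and 0.96 in the controls and 0.91 and 0.93 in the knockouts. Both knockout values lay between the control values, and the difference was 0.075 ± 0.099 (SE), or -0.039 without control replicate 1. Its probe is printed 10 times on each array, and the spread over these spots was 0.063 to 0.096 (SD, log2).

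Cdh2 (N-cadherin), of mesenchyme and early tubules, had log2 levels of 3.96 and 3.93 in the controls and 3.77 and 3.80 in the knockouts. The groups did not overlap, and Cdh2 was 1.12-fold lower (difference -0.17 ± 0.056, SE; unadjusted p = 0.0426, adjusted p = 0.381 in limma). A second Cdh2 probe differed by -0.077. Cdh3 (P-cadherin), an epithelial cadherin, had log2 levels of 1.0 and 1.04 against 0.87 and 0.92, again without overlap, and a difference of -0.12 ± 0.058 (SE). Cdh4 (R-cadherin), of early nephron epithelium, overlapped, with levels of 1.44 and 1.32 against 1.44 and 1.65. Its 3 probes did not share a direction, with differences of 0.16, 0.30 and -0.39. The mean over them was 0.023, and the difference of the first ran from 0.054 (leaving out Sall1 knockout replicate 2) to 0.27 (leaving out Sall1 knockout replicate 1).

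Cdh15 (M-cadherin), which myoblasts use to adhere before they fuse, stood apart from the other classical members. Its log2 level was -0.37 and -0.43 in the controls and 0.64 and 0.055 in the knockouts, so both knockout samples were higher but they differed from each other by more than the controls did. It was 1.68-fold higher (difference 0.74 ± 0.22, SE; adjusted p = 0.357 in limma) and the difference was 0.45 without Sall1 knockout replicate 1. Skeletal muscle markers were higher in the same samples for most of the list. Their summed level, in units of the 75th percentile, was 33.4 and 16.3 in the controls and 59.9 and 41.7 in the knockouts, with Myod1 and Myog, which specify muscle precursors, among the 7 of 8 that were higher on both knockout arrays, while Des (desmin) was lower on both, with a difference of -0.51. All 8 of these markers were above background in every sample. The controls differed more in these markers than in Cdh15. Control replicate 2 minus control replicate 1 ran from -1.63 for Myod1 to -0.22 for Des, against -0.057 for Cdh15. Between the knockouts, replicate 2 minus replicate 1 ran from -0.61 for Acta1 to -0.042 for Des, with Cdh15 at -0.58. The part of the markers in the Cdh15 result was not tested.

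**Figure D3:**
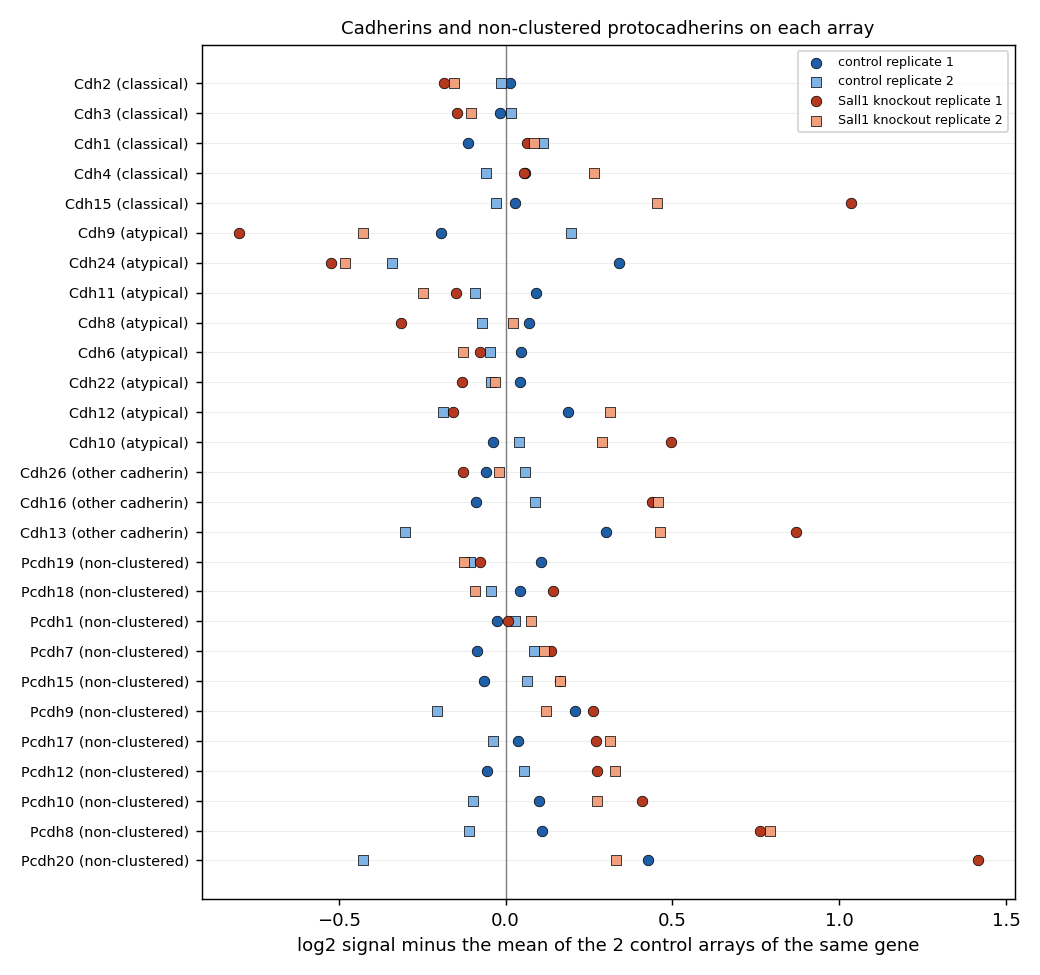
Log2 signal on each of the 4 arrays minus the mean of the 2 control arrays of the same gene (x axis), for the cadherins and non-clustered protocadherins (y axis, by class and difference). Pcdh8 and Cdh16 have both knockout points close together and apart from the controls, while the points of Cdh15 and Cdh13 are spread.

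Atypical cadherins of the kidney mesenchyme and early nephron were slightly lower in both knockout samples. Cdh11 (OB-cadherin), of mesenchyme and stroma, had log2 levels of 2.52 and 2.33 in the controls and 2.28 and 2.18 in the knockouts, a difference of -0.20 ± 0.092 (SE), or -0.11 without control replicate 1. Its other probe differed by -0.23. Cdh6 (K-cadherin), which marks the renal vesicle and the cells that become proximal tubule, had levels of -0.18 and -0.27 against -0.30 and -0.35. Its groups did not overlap, and the difference was -0.10 ± 0.067 (SE; adjusted p = 0.552 in limma), or -0.056 without control replicate 1. The list of nephron progenitor markers had a median of -0.57 over 7 genes in the same samples. Nascent nephron markers had a median of -0.047 over 7 genes, with 1 higher and 3 lower on both knockout arrays. Proximal tubule markers had a positive median of 0.56, with 6 of 8 higher and 0 lower on both. The summed level of the progenitor markers was 101 and 102 in the controls and 71.1 and 72.5 in the knockouts, in units of the 75th percentile. Stroma markers did not move as 1 list, with 3 of 8 higher on both knockout arrays (Col1a1, Col3a1 and Penk), 2 of 8 lower on both (Foxd1 and Pdgfra), a median difference of 0.032 and summed levels of 124 and 110 against 137 and 129. The part of these lists in the Cdh11 and Cdh6 results was not tested.

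The rest of the atypical class are cadherins best known from the nervous system. Cdh9 had log2 levels of -3.51 and -3.12 in the controls and -4.11 and -3.74 in the knockouts. Both knockout values were lower, by 1.53-fold (difference -0.61 ± 0.20, SE; adjusted p = 0.380 in limma), but with normexp background correction the difference was -0.14. Cdh10 went the other way, with levels of -4.01 and -3.93 against -3.48 and -3.68 and a difference of 0.39 ± 0.097 (SE), or 0.21 with normexp. Their signals were between 31.0 and 63.3 intensity units on each array. Cdh24 differed by -0.50 ± 0.25 (SE), with control replicate 1 above the other 3 arrays, and Cdh8, Cdh12 and Cdh22 overlapped, with differences of -0.15, 0.078 and -0.080. Of the 8 listed markers of neurons 4 were lower on both knockout arrays and 0 higher (median -0.42). The summed level of this list was 3.83 and 4.48 in the controls and 3.45 and 3.35 in the knockouts, and its part in these results was not tested.

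Cdh16 (Ksp-cadherin), a cadherin of tubular epithelium and ureteric bud best known from kidney, was higher in both knockout samples. Its log2 level was 3.74 and 3.92 in the controls and 4.27 and 4.29 in the knockouts, and its signal 8020 and 8314 against 10322 and 10220. The knockout samples lay within 0.018 of each other on the log2 scale, and the groups were well apart. The difference was 0.45 ± 0.085 (SE), or 1.36-fold, with an adjusted p of 0.271 in limma and 0.0268 with the trended and robust prior. Proximal tubule markers were higher in the same samples for 6 of 8 genes on both arrays, among them Hnf4a, Lrp2 and Pdzk1, with summed levels of 2.29 and 2.35 in the controls and 4.01 and 3.66 in the knockouts. The rest of this list overlapped, with a difference of 0.22 for Cubn and -0.22 for Slc34a1. Ureteric bud markers were higher for 5 of 9 and lower for 2 of 9 on both arrays, with a median difference of 0.12. Their summed level, to which Krt18 adds most, was 42.4 and 43.4 against 46.8 and 46.4, while the median log2 level of the list went the other way, from 1.16 and 1.08 in the controls to 0.79 and 0.94 in the knockouts. The part of either compartment in the Cdh16 result was not tested.

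The other members of that class are Cdh13 and Cdh26. Cdh13 (T-cadherin), which is held by a lipid anchor, lacks a cytoplasmic tail and is found on endothelium, had levels of -2.21 and -2.81 in the controls and -1.64 and -2.05 in the knockouts. The difference of 0.67 ± 0.27 (SE), or 1.59-fold, came with control replicate 2 minus control replicate 1 at -0.61, and it was 0.36 without control replicate 2 and 0.97 without control replicate 1. Sall1 knockout replicate 2 minus replicate 1 was -0.41. Endothelial markers, given with Pcdh12, were higher on both knockout arrays for 5 of 7 genes. Skeletal muscle markers, given with Cdh15, were higher on both for 7 of 8 and lower for 1. The summed level of the muscle list was 33.4 and 16.3 in the controls and 59.9 and 41.7 in the knockouts. The part of either list in the Cdh13 result was not tested. Cdh26 overlapped, with a difference of -0.074 ± 0.079 (SE).

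Pcdh8 (paraxial protocadherin), which lowers cadherin adhesion and shapes cell movement in early mesoderm, had the smallest p of all members. Its log2 level was -0.40 and -0.62 in the controls and 0.25 and 0.28 in the knockouts, and its signal 454 and 357 against 637 and 636. Both knockout samples were above both controls, and the gap between groups was larger than the spread within either. The difference was 0.78 ± 0.097 (SE), or 1.72-fold, with an adjusted p of 0.191 in limma, 0.0888 with normexp correction and 0.0109 with the trended and robust prior. Over the alternatives the difference ranged from 0.63 to 0.89. The skeletal muscle and the liver and gut markers, with median differences of 1.20 and 1.33, were higher on both knockout arrays for 7 of 8 and 8 of 8 genes. The liver and gut list had summed levels of 13.2 and 18 in the controls and 37.6 and 32.5 in the knockouts. Leukocyte markers were higher on both knockout arrays for 5 of 5 genes, with a median difference of 0.52 and summed levels of 5.46 and 5.16 against 7.76 and 6.68. Median differences were also positive for the proximal tubule (0.56) and endothelium (0.22) lists, and negative for the nephron progenitor (-0.57) and neuron (-0.42) lists. The part of these lists in the Pcdh8 result was not tested.

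Pcdh17 and Pcdh12 followed with smaller but tight differences. Pcdh17, a protocadherin known from axon bundles and synapses, had log2 levels of 1.45 and 1.38 in the controls and 1.68 and 1.73 in the knockouts, a difference of 0.29 ± 0.063 (SE; adjusted p = 0.291 in limma and 0.0642 with the trended and robust prior). Pcdh12, an endothelial protocadherin, had levels of 1.06 and 1.17 against 1.39 and 1.44 and a difference of 0.30 ± 0.070 (SE; adjusted p = 0.309 in limma and 0.0749 with that prior). For both genes all knockout values were above all control values. Endothelial markers were higher on both knockout arrays for 5 of 7 genes, with Cdh5 at a difference of 0.22 and a list median of 0.22. Their summed level was 24.8 and 25.4 in the controls and 27.6 and 28.7 in the knockouts, and their part in the Pcdh12 result was not tested.

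**Figure D4:**
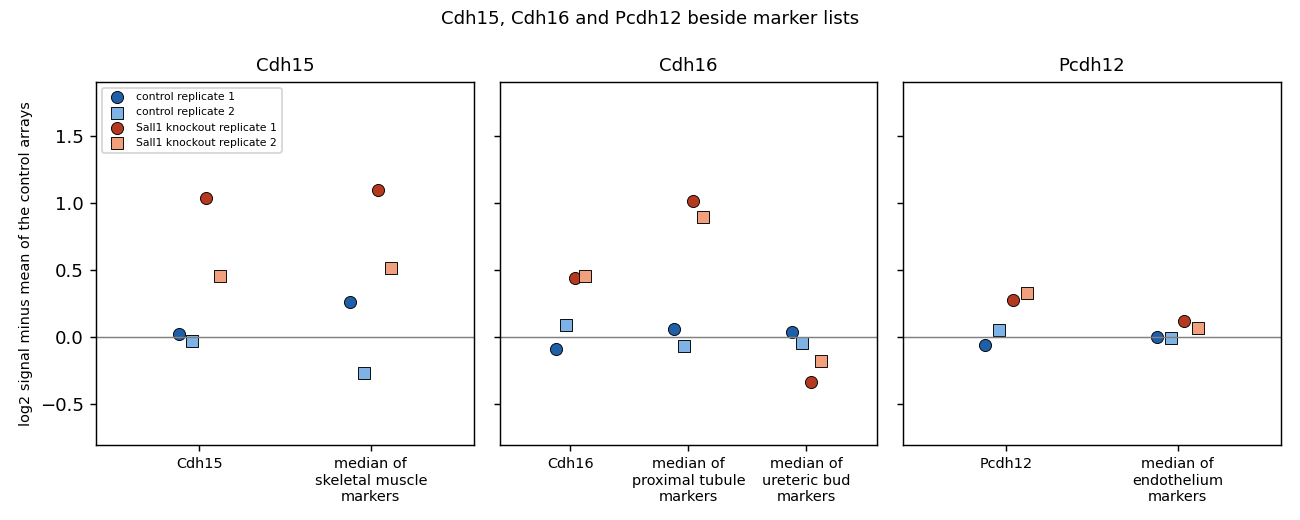
Log2 level of Cdh15, Cdh16 and Pcdh12 on each array, beside the median log2 level of skeletal muscle, proximal tubule, ureteric bud and endothelium markers, each minus its mean over the 2 control arrays (y axis). Both knockout arrays lie above both control arrays for each gene and for the muscle, proximal tubule and endothelium lists, and below both for the median of the ureteric bud markers.

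The remaining non-clustered protocadherins gave small positive differences or overlapped. Pcdh10, of the delta group that links to the actin regulator WAVE, had levels of -3.55 and -3.74 in the controls and -3.23 and -3.37 in the knockouts, a difference of 0.34 ± 0.10 (SE), or 0.22 with normexp. Pcdh7 differed by 0.13 ± 0.083 (SE), without overlap, and its other 2 probes by 0.45 and 0.60. Pcdh15, which pairs with Cdh23 in hair cell tip links, differed by 0.16 ± 0.072 (SE), and by 0.18 and 0.40 for 2 further probes above background. Pcdh20 had the largest difference of the class, 0.87 ± 0.50 (SE), but its levels of -3.18 and -4.03 against -2.19 and -3.27 overlapped. Pcdh1, Pcdh9 and Pcdh18 overlapped, with differences of 0.042, 0.19 and 0.025, and another Pcdh9 probe, above background on 3 arrays, differed by -0.18. Pcdh19 was the member of this class with a negative sign, at -0.10 ± 0.096 (SE).

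In the clustered protocadherins no gene had an unadjusted p under 0.05 in limma, and none reached 1.5-fold without overlap. Of the beta cluster, in which each gene is a single exon, 15 of 22 genes were tested, 11 with a positive and 4 with a negative difference. Pcdhb21 had log2 levels of -0.094 and 0.13 in the controls and 0.38 and 0.25 in the knockouts, a difference of 0.30 ± 0.11 (SE; adjusted p = 0.400). Pcdhb20, Pcdhb22 and Pcdhb17 had differences of 0.25 ± 0.095, 0.25 ± 0.11 and 0.37 ± 0.16 (SE). With an array left out, Pcdhb21 was as low as 0.19 (without control replicate 1), Pcdhb20 0.14 (without Sall1 knockout replicate 1) and Pcdhb22 0.13 (without control replicate 2). In these 4 genes both knockout values were above both controls, which held for 21.8% of everything tested. Pcdhb15, at -0.25 ± 0.12 (SE), was the beta gene below both controls, at -0.11 without Sall1 knockout replicate 2 and -0.39 without Sall1 knockout replicate 1, while Pcdhb4 and Pcdhb7 differed by -0.065 and -0.039. All 3 of these had a positive sign with normexp correction. The other 8 beta genes tested overlapped, with differences from -0.046 for Pcdhb1 to 0.33 for Pcdhb10.

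By RefSeq order, the 4 beta genes above both controls stand at positions 17, 20, 21 and 22 of 22. Among genes at positions 12 to 22, 4 of 9 tested were above both controls and the median difference was 0.21. Pcdhb15, at position 15, was below both controls (-0.25). Among those at positions 1 to 11, 0 of 6 were above both controls, and the median was 0.036. Of everything tested, 21.8% was above both controls. This split of the cluster was chosen after the values were seen and has no test. The beta genes are similar in sequence, so probes may share targets, which was not tested. Pcdhb3, printed 10 times per array, had a spread over spots of 0.16 to 0.25 (SD, log2), and a difference of 0.12 ± 0.14 (SE).

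**Figure D5:**
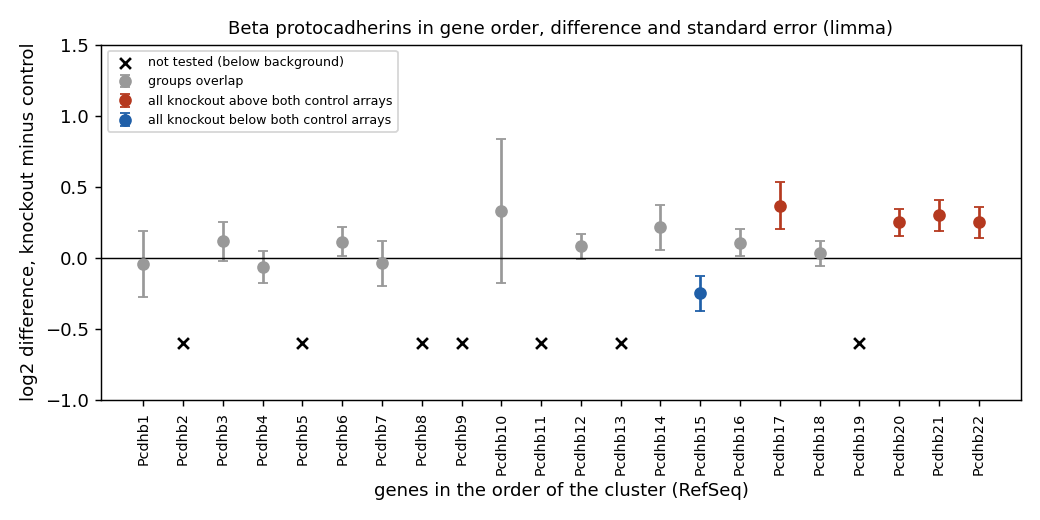
Log2 difference, knockout minus control (y axis), of the beta protocadherins in their order along the cluster (x axis), with limma standard errors; crosses mark genes that were not tested. The 4 genes with both knockout arrays above both control arrays are Pcdhb17, Pcdhb20, Pcdhb21 and Pcdhb22.

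The alpha and gamma genes splice different first exons to shared last exons, so a probe in the shared part reads the sum of a cluster; where each probe lies was not analysed here. Of the alpha genes, Pcdha8 and Pcdhac2 were tested, with differences of -0.013 ± 0.11 and -0.0096 ± 0.14 (SE) and overlapping groups, and the sign of Pcdhac2 turned with normexp. Of the gamma genes, Pcdhga9 had log2 levels of 4.57 and 4.57 in the controls and 4.71 and 4.68 in the knockouts, a difference of 0.12 ± 0.055 (SE; adjusted p = 0.461 in limma). Its other probe differed by 0.051 on the same scale, with overlap. Pcdhgc5 and Pcdhga10 overlapped, with differences of 0.39 ± 0.29 and 0.074 ± 0.099 (SE), and so did Pcdhga1, at 0.055. The Pcdhgc5 difference was 0.0010 without control replicate 2, 0.79 without control replicate 1 and 0.20 with normexp. The sign of Pcdhga10 turned with quantile normalization.

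The partners of the cadherins were read from a list of 26 genes, of which 23 were tested. By limma, 0 passed the adjusted p of 0.05. The unadjusted p was under 0.05 for 2 of 23 with a positive and 3 of 23 with a negative sign, against 6.85% and 5.84% of everything tested. The median difference was 0.031. Ctnna3 was not above background and was not tested. The core catenins had differences close to or under their errors. Ctnnb1 (beta-catenin) differed by -0.048 ± 0.058 (-0.0051 with quantile normalization), Ctnna1 (alpha-catenin) by -0.0098 ± 0.091 (0.040 with quantile normalization) and Ctnnd1 (p120-catenin) by 0.067 ± 0.059 (SE). Ctnnd2 (delta-catenin), a relative of p120 known from neurons, was 1.41-fold lower, with levels of -1.21 and -1.10 in the controls and -1.69 and -1.62 in the knockouts (difference -0.50 ± 0.070, SE; adjusted p = 0.216), but with normexp the difference was -0.21. The neuron markers given above had a median of -0.42, and their part in the Ctnnd2 result was not tested.

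Repressors of Cdh1 did not share a direction. Zeb1 differed by -0.31 ± 0.082 and Snai2 by -0.12 ± 0.057, while Twist1 differed by 0.38 ± 0.12 (0.23 without control replicate 2), Snai1 by 0.13 ± 0.058 and Zeb2 by 0.10 ± 0.055 (SE). In each of these 5 genes the groups did not overlap, which held for 49.2% of everything tested, and none passed in limma (adjusted p = 0.337 to 0.488). Furin, the protease that removes the cadherin propeptide, differed by 0.22 ± 0.057 (SE). Among regulators of clustered protocadherin promoters, Ctcf, Rad21, Smchd1 and Dnmt3b differed by 0.011, -0.044, -0.098 and -0.026.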

How the data were processed

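Total RNA was hybridised as Cy3-labelled cRNA, made from 0.25 µg, to 4 one-colour Agilent arrays on 1 slide in 1 scan. The authors deposited scanner files from Agilent Feature Extraction 10.7.3.1 (array design 028005). Per the file headers, the processed signal used here is a linear intensity after background and spatial correction, not scaled between arrays. The marks for well above background are other columns of the deposited files. In the deposited value table, 100% of 55239 single-spot probes had an intensity within 1% of the scanner's.

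Control and outlier-marked spots were left out, the log2 of each array's 75th percentile was subtracted from log2 signals, and spots of a probe were averaged. A probe was kept if both arrays of a group had it well above background, and the brightest probe stood for a gene. Accessions were named without versions from a RefSeq table of GRCm38.p6 (26413 of 55681 probes matched). The comparison used limma 3.58.1 under R 4.3.3 (two-sided, 2 residual degrees of freedom), with Benjamini-Hochberg adjustment over 25083 genes and unnamed sequences. The fit was tested on simulated data.

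Members and lists were chosen with earlier results of these data known. Named were all cadherins and non-clustered protocadherins, the 3 genes with the smallest unadjusted p per protocadherin cluster and direction, Sall1, and of the partners Ctnnb1, Ctnna1, Ctnnd1 and the 4 with the smallest unadjusted p. Other clustered and partner genes were named after their values were seen. Alternatives were other background corrections, scalings, filters, probe rules, priors and weights, the value table, other thresholds and each array left out.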

Additional observations from a re-analysis of the deposited data

How the results depend on the processing

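With 2 arrays per group and dim probes for many members, small differences cannot be told from the spread. Over the alternatives, Pcdh8, Cdh16, Pcdh12, Pcdh17, Cdh15, Cdh13, Cdh10, Pcdh10, Cdh9, Cdh2, Cdh3, Cdh6 and Cdh11 kept their direction. Their groups did not overlap, so leaving out an array could not turn the sign. A change of prior leaves the difference itself as it was. The kept direction therefore says little about these genes. The probes of Cdh4 and Pcdh9 did not share one.

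Members called higher were 2 with the trended and robust prior and 0 in the other alternatives. Members at least 1.5-fold higher without overlap were 6 with no background filter, 0 at a 2-fold limit and 2 to 6 with an array left out, the 6 without control replicate 1. Those lower were 0 with normexp, 2 with no filter, 0 at 2-fold and 0 to 1 with an array left out, the 0 without Sall1 knockout replicate 1. The median of the classical class was 0.036 with median centring, 0.023 with the mean over probes, -0.0012 with every probe on its own and -0.039 to 0.10 with an array left out. That of the other cadherins was 0.22 with no filter and 0.36 to 0.46 with an array left out, and that of the beta cluster 0.017 to 0.20. The partner median was -0.0077, 0.0042 and -0.018 under the first 3 of these and -0.012 to 0.069 with an array left out. Sall1 passed with normexp (-0.72, adjusted p = 0.0401) and the trended and robust prior (-0.75, adjusted p = 0.00142).

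The sign turned with normexp for Pcdhac2 (0.059), Pcdhb15 (0.070), Pcdhb4 (0.049) and Pcdhb7 (0.068), and with quantile normalization for Pcdhga10 (-0.011) and Ctnna1 (0.040). With an array left out, ranges were -0.039 to 0.19 for Cdh1, -0.14 to 0.11 for Pcdha8, -0.16 to 0.14 for Pcdhac2, -0.18 to 0.048 for Pcdhb4, -0.21 to 0.13 for Pcdhb7, -0.035 to 0.18 for Pcdhga10 and -0.097 to 0.078 for Ctnna1. The cause of these shifts was not tested. No paired analysis was possible because the labels give no replicate numbers shared by the groups.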
